A study of Mus musculus with 2 samples.

Results

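The genes described here are 44 mitotic genes whose products build the kinetochore, run the spindle checkpoint, separate the sister chromatids and divide the cell. They were chosen by name, as the rows of the expression tables that carry their symbols. All 44 were among the 23282 rows, and all 44 had at least 10 reads in at least 1 library, as did 12164 rows of the whole table (the tested genes). The RNA came from naïve CD4+ T cells of the spleens of wild-type C57BL/6 female mice, 7 to 10 weeks old when used. The cells were activated with antibodies to CD3ε and CD28 and cultured for 1 day with IL-2, TGF-β1 and antibodies that block IFN-γ and IL-4, conditions under which such cells become induced regulatory T (iTreg) cells. The control culture received DMSO, the solvent, and the other culture received 10 μM Tubastatin A (TSA), an inhibitor of HDAC6, a deacetylase of tubulin. QuantSeq libraries, which read the 3′ end of each mRNA, were sequenced from 1 culture of each kind, and the methods state a single set of biological samples. Differences between the libraries therefore had no replicate check and no p-value could be given.

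The deposited values were log2 of a normalized count plus 1, and the reads behind them could be recovered, because 1 read was worth 1.005 normalized counts in the control and 0.995 in the TSA table. The libraries held 10846246 (control) and 10433084 (TSA) reads on genes. A log2 fold change below is the difference of the deposited values (TSA minus control), and the range after a fold is its exact 95% interval from the reads, which covers counting error only and compares these libraries, not the conditions. Where a pair of read counts is given for a gene, the control library comes first. Each of the 8 T cell markers had between 602 and 8852 control reads and between 794 and 7512 TSA reads, with *Foxp3*, the transcription factor of regulatory T cells, at 1633 and 965 reads. Reads of *Hdac6*, the target of the inhibitor, were 146 and 166. The markers of other cells were few: the 5 B cell markers summed to 12 and 15 reads, with *Pax5* at 0 in both, the 5 CD8 T and NK cell markers to 80 and 88, mostly *Cd8b1*, with *Klrb1c* and *Klre1* at 0, the 7 myeloid markers to 66 and 40, and the 6 erythroid markers to 43 and 58, with *Hba-a2* at 0.

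In mitosis, the kinetochore is a stack of protein complexes on the centromere that grips spindle microtubules. Kinetochores without microtubules start the spindle checkpoint, which holds back the anaphase-promoting complex (APC/C) by binding its activator Cdc20. Once all chromosomes are attached, the APC/C marks securin and B-type cyclins for destruction, separase cuts the cohesin that ties the sister chromatids, and the central spindle then guides cytokinesis. Transcripts of many of these genes are made mainly in G2 and M phase, under the MuvB complex with B-Myb and FoxM1, which binds promoters through a cell cycle homology region (CHR) and works with NF-Y at CCAAT boxes. Naïve T cells are quiescent and enter the cell cycle after activation. In RNA from whole cultures, fewer cells in mitosis and less RNA per mitotic cell cannot be told apart.

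Promoters of 6 members are shown to place these motifs beside the expression values: the 5 members with the largest fall among those that hold a CHR, and *Pttg1*, the member with the highest log2 fold change among those with at least 100 reads in each library. Each sequence is from RefSeq (GRCm38.p6), in the direction of the gene, and runs from 250 bases before the start site through the first 50 transcribed bases. Capitals mark the CHR (TTTGAA or TTCGAA, on either strand) and the CCAAT box (CCAAT, on either strand). They are the promoters of *Espl1* (chr15:102296043-102296342, + strand), *Ube2c* (chr2:164769679-164769978, + strand), *Bub1* (chr2:127831810-127832109, - strand), *Mki67* (chr7:135716330-135716629, - strand), *Cenpf* (chr1:189688037-189688336, - strand) and *Pttg1* (chr11:43425932-43426231, - strand).
Espl1: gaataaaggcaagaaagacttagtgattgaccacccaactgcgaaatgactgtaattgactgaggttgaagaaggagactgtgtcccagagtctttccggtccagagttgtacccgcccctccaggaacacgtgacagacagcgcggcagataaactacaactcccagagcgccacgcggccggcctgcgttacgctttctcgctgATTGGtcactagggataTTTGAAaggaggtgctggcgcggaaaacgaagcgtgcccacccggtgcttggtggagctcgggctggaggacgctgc
Ube2c: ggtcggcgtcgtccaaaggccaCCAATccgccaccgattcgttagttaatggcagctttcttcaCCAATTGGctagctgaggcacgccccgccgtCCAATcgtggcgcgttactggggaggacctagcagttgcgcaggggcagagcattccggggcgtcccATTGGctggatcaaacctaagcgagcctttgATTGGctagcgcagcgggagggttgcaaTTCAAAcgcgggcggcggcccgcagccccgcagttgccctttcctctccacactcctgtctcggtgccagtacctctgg
Bub1: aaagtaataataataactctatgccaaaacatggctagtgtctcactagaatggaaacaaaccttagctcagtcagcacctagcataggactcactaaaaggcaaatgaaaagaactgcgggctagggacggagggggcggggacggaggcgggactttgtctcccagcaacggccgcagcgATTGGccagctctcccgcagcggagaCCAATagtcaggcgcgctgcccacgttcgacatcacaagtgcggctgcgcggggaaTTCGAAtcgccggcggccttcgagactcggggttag
Mki67: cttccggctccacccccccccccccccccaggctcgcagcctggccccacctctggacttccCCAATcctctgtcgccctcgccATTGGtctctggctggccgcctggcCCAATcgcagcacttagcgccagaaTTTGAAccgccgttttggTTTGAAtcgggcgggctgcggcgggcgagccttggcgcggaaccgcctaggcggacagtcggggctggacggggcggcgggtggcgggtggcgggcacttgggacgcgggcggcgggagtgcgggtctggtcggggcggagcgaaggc
Cenpf: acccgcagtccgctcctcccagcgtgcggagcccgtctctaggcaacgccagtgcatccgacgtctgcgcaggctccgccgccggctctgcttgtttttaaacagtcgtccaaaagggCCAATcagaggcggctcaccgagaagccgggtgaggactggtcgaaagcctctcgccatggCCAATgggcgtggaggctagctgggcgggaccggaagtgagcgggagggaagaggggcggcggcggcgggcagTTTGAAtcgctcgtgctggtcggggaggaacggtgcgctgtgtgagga
Pttg1: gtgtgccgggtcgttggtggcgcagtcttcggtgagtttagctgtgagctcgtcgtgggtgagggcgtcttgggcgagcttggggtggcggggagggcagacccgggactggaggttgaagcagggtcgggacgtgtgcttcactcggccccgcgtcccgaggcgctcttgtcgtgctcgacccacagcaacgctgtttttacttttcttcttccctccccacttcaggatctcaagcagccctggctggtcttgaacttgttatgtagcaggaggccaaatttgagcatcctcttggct

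The first base of the CHR lay 27 bases before the start site in *Espl1* (position -27), at -29 on the other strand in *Ube2c*, and at 14 in *Bub1*, counted from 0 at the start base. In *Mki67* it lay at -116 and -98, and in *Cenpf* at 2. *Ube2c* held 6 CCAAT boxes, of which a pair overlaps in the letters CCAATTGG, and *Mki67* held 3. The *Pttg1* window held neither motif. Its RefSeq start is also a GENCODE M21 transcript start, 270 bases inside the annotated gene.

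Most of these genes had fewer reads in the TSA library. Of the 44 members, 42 were lower in the TSA library and 2 (*Pttg1* and *Cit*) were higher. Of the 12164 tested genes, 5910 were lower and 6246 higher. Together they took 34855 control and 20040 TSA reads, a fold of 0.569 (0.559 to 0.579) with the deposited scaling. Scaled to the library total instead, these were CPM values of 3210 and 1920. Lower by more than 2-fold, the threshold of the study, were 18 members, or 40.9% of them, against 3.15% of all tested genes. None of the members was more than 2-fold higher, where 11.5% of all tested genes were. Both shares were smaller among better counted genes: of the 9399 tested genes whose normalized counts averaged 50 or more, to which 43 of the 44 members belong, those that are no members were lower by more than 2-fold in 1.31% and higher in 2.97%.

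At a threshold of 1.5-fold, 31 members were lower, against 8.34% of all tested genes, and 2 were higher (*Pttg1* and *Cit*, the latter with 9 and 18 reads), against 18.7%.

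The median log2 fold change was -0.90 over the members, with quartiles of -1.27 and -0.41, and 0.015 over all tested genes. Of the 9399 better counted genes, 2.14% lay below the median of the members. The interval lay wholly below no change for 37 members (28.0% of all tested genes) and wholly above it for 1, *Pttg1* (28.1% of all tested genes). It lay wholly beyond 2-fold lower for 13 members, against 0.814% of all tested genes. *Cit* had the fewest reads, 9 and 18, and the lowest count of any other member was 59, for *Espl1* in the TSA library.

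**Figure D1:**
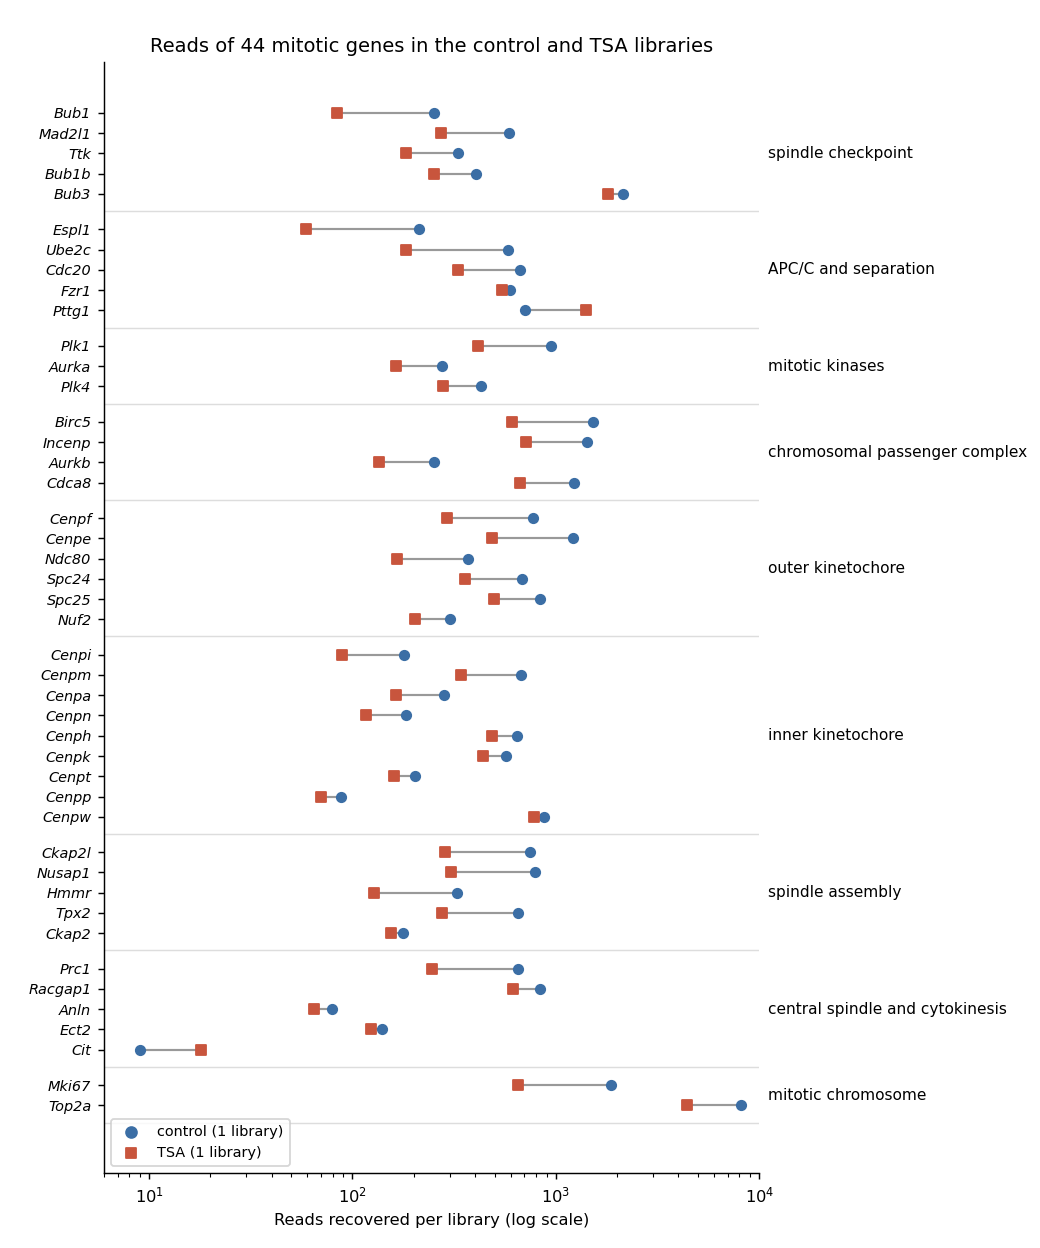
Reads of each of the 44 genes in the control library (circles) and the TSA library (squares), on a log axis, grouped by role, with a line joining the 2 values of a gene. The TSA value lies to the left for 42 genes and to the right for *Pttg1* and *Cit*.

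**Figure D2:**
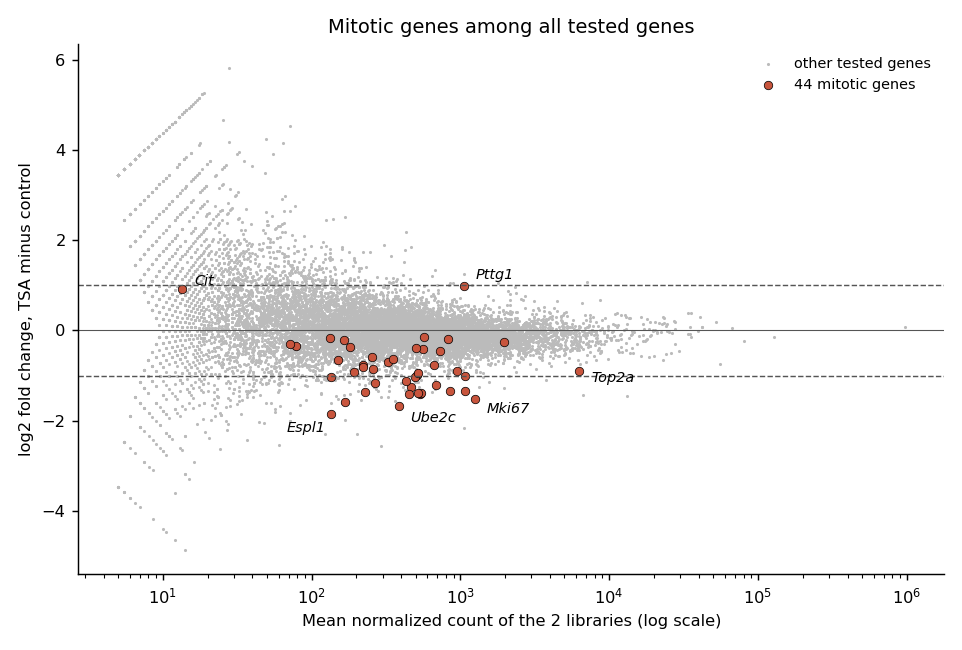
Log2 fold change (TSA minus control) against the mean normalized count of the 2 libraries (log axis) for the tested genes, with the 44 mitotic genes in red and dashed lines at 2-fold. The members lie mostly in the lower part of the cloud, with 18 below the lower line and *Pttg1* at 0.99, just under the upper line.

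Of the 5 spindle checkpoint genes, all were lower in the TSA library and 2 passed 2-fold, with -0.86 as the median of their log2 fold changes. *Bub1* (chromosome 2, 127801122 to 127831865 in GENCODE M21), the kinase that recruits checkpoint proteins to the kinetochore, had 252 control reads and 84 TSA reads, 3.01-fold lower (2.36 to 3.93). *Mad2l1* (chromosome 6, 66535390 to 66547220) encodes Mad2, which binds Cdc20 in the inhibitory complex. Its reads went from 587 to 272, 2.17-fold lower (1.88 to 2.53). *Ttk*, the Mps1 kinase at the head of the checkpoint, had 332 and 184 reads (-0.86 on the log2 scale). *Bub1b*, which encodes BubR1, had 404 and 251 reads (-0.70). The smallest difference was in *Bub3*, the WD40 partner that both Bub1 and BubR1 bind, with 2129 and 1806 reads (-0.25, 1.19-fold lower, 1.12 to 1.27).

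Partners in the checkpoint thus differed in size of change. The fold of *Bub1* divided by the fold of *Bub3* was 0.393 (0.301 to 0.509), and that of *Bub1* by its paralogue *Bub1b* was 0.537 (0.395 to 0.725). Such a ratio of folds comes from the 4 read counts alone and does not depend on how the libraries are scaled. Of 17 pairs of partners or paralogues compared in this way, the interval left out equal folds for 11. These intervals cover counting error only, and how often pairs of unrelated genes would do so was not tested. For single genes, the interval lay wholly below no change in 28.0% of all tested genes and wholly above it in 28.1%. The count of 11 is therefore no trait of partner genes.

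The APC/C and chromatid separation group held both ends of the range. *Espl1* (chromosome 15, 102296266 to 102324357), which encodes separase, the protease that cuts cohesin, had 212 control and 59 TSA reads. That was the lowest log2 fold change of all members, -1.84, or 3.59-fold lower (2.71 to 4.93). *Pttg1* (chromosome 11, 43420250 to 43426251) encodes securin, the inhibitor that holds separase inactive until anaphase. Its reads went the other way, from 705 to 1413, a log2 fold change of 0.99 and a fold of 1.98 (1.81 to 2.18). Among the 9399 better counted genes, 3.04% were at or above this value. Securin reads per separase read were 3.33 (control) and 23.9 (TSA), and the ratio of the folds was 7.20 (5.29 to 9.91), the farthest from 1 of the 17 pairs. Whether *Pttg1* passed 2-fold depended on the scaling: its log2 fold change ran from 0.99 to 1.07 over 6 scalings (as deposited, by the median of ratios, by total reads with or without *Rn45s*, by the upper quartile, and none) and passed under 4 of them.

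*Ube2c* and *Cdc20* were lower, and *Fzr1* was nearly level. *Ube2c* (chromosome 2, 164769898 to 164778822), the E2 enzyme that starts ubiquitin chains for the APC/C, had 584 and 184 reads, 3.19-fold lower (2.71 to 3.80). *Cdc20*, the activator used in early mitosis, had 668 and 329 reads, 2.05-fold lower (1.79 to 2.35), and passed 2-fold under 3 of the 6 scalings. *Fzr1* encodes Cdh1, the activator used from late mitosis into G1. It had 593 and 545 reads, a fold of 0.911 whose interval (0.809 to 1.02) held no change. The fold of *Cdc20* divided by that of *Fzr1* was 0.536 (0.448 to 0.641), and the reads of *Cdc20* per read of *Fzr1* went from 1.13 to 0.604.

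The 14 subunits of the APC/C itself did not show falls of this size. None passed 2-fold, 11 were lower and 3 higher, and their median log2 fold change was -0.17, from -0.81 in *Anapc15* (473 and 273 reads) to 0.40 in *Anapc13* (414 and 553). Their summed reads were 8692 and 8101.

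All 3 mitotic kinases outside the other groups were lower, and *Plk1* by the most. *Plk1* (chromosome 7, 122159439 to 122169873), the polo-like kinase of centrosome maturation, kinetochore attachment and cytokinesis, had 950 and 412 reads, 2.32-fold lower (2.07 to 2.62). *Plk4*, its paralogue that starts centriole duplication in S phase, had 429 and 279 reads (-0.63). The fold of *Plk1* divided by that of *Plk4* was 0.667 (0.549 to 0.810). *Aurka*, the Aurora kinase of the spindle poles, had 276 and 164 reads (-0.76). Its fold was 1.40 times (1.10 to 1.79) that of *Tpx2*, the spindle protein that activates it.

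The 4 genes of the chromosomal passenger complex, which corrects faulty attachments and later moves to the central spindle, were all lower, 2 of them past 2-fold, with a median of -0.97 on the log2 scale and a summed fold of 0.474 (0.450 to 0.499). *Birc5* (chromosome 11, 117849251 to 117855743), which encodes survivin, had 1527 and 609 reads, 2.53-fold lower (2.30 to 2.79). *Incenp*, the scaffold, had 1427 and 712 reads, 2.02-fold lower (1.85 to 2.22), and passed 2-fold under 3 of the 6 scalings. The kinase *Aurkb* had 253 and 135 reads (-0.92), and *Cdca8*, which encodes borealin, had 1223 and 663 (-0.90). Between *Cdca8* and *Aurkb* the ratio of folds was 1.02 (0.803 to 1.29), and the fold of *Aurkb* was 0.898 times (0.669 to 1.21) that of the other Aurora kinase, *Aurka*, so unequal change was not detectable at this depth. *Birc5* had the larger fall of the pair with *Incenp*, at a ratio of 0.799 (0.700 to 0.912).

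Of the outer kinetochore, which binds microtubules, all 6 members were lower, 3 of them past 2-fold (median -1.05). The Ndc80 complex is a rod of 4 proteins. *Ndc80* had 370 and 166 reads, 2.24-fold lower (1.87 to 2.72), and its coiled-coil partner *Nuf2* had 302 and 203, a fold of 0.667 (0.554 to 0.798). The remaining subunits, *Spc24* with 681 and 359 reads (-0.94) and *Spc25* with 837 and 496 (-0.77), did not differ detectably in fold, at a ratio of 0.890 (0.748 to 1.06), whereas that of *Ndc80* to *Nuf2* was 0.667 (0.513 to 0.869). *Cenpe*, a kinesin that moves chromosomes to the spindle equator, had 1218 and 485 reads, 2.53-fold lower (2.28 to 2.82). *Cenpf* (chromosome 1, 189640606 to 189688086), a large coiled-coil protein of the outer plate, had 774 and 292 reads, 2.67-fold lower (2.34 to 3.07). The ratio of the last pair was 1.06 (0.887 to 1.26).

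The inner kinetochore, which sits on centromeric chromatin through the cell cycle, was also lower in 9 of 9 members. Their median was -0.42, with 1 gene past 2-fold. That gene was *Cenpi*, on chromosome X, with 180 and 89 reads, 2.03-fold lower (1.58 to 2.66), and it passed under 3 of the 6 scalings. *Cenpm*, another member of the CENP-H/I/K/M complex, had 673 and 341 reads, 1.99-fold lower (1.75 to 2.28). The remaining subunits of that complex, *Cenph* with 644 and 486 reads (-0.42) and *Cenpk* with 568 and 437 (-0.39), had nearly the same fold, at a ratio of 0.981 (0.823 to 1.17). *Cenpa*, the histone H3 variant that marks the centromere, had 282 and 163 reads (-0.80), and *Cenpn*, which recognises the CENP-A nucleosome, had 183 and 117 (-0.65). *Cenpt*, *Cenpw* and *Cenpp* had log2 fold changes of -0.36, -0.18 and -0.34, from 204 and 160, 878 and 783, and 88 and 70 reads. The interval of *Cenpp* held no change (fold 0.567 to 1.09). Between *Cenpa* and *Cenpt* the ratio of folds was 0.737 (0.550 to 0.988). The 6 outer members went from 4182 to 2001 reads and the 9 inner members from 3700 to 2646. The ratio of these summed folds, a comparison chosen after the values were seen, was 0.669 (0.622 to 0.720). It covers these members only, not every gene of either layer.

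Spindle assembly was the role with the lowest median, -1.36, with 4 of 5 genes past 2-fold. *Tpx2* had 649 and 275 reads, 2.38-fold lower (2.07 to 2.75). *Hmmr*, a microtubule-binding protein of the spindle poles, had 325 and 127 reads, 2.57-fold lower (2.10 to 3.20). *Nusap1*, which bundles spindle microtubules near chromosomes, had 788 and 304 reads, a fold of 0.383 (0.334 to 0.437). The paralogues *Ckap2* and *Ckap2l*, both spindle proteins, parted: *Ckap2l* went from 745 to 286 reads, 2.62-fold lower (2.29 to 3.03), while *Ckap2* had 177 and 154, with an interval that held no change (fold 0.862, 0.690 to 1.08). The fold of *Ckap2* was 2.27 times (1.74 to 2.95) that of *Ckap2l*.

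Of the 5 genes of the central spindle and cytokinesis, 1 passed 2-fold, and the median was -0.29. Among those with at least 10 reads in both libraries, which leaves out *Cit*, the median was -0.37. *Prc1*, which bundles the antiparallel microtubules of the central spindle, had 654 and 247 reads, 2.67-fold lower (2.31 to 3.11). *Racgap1*, the GTPase-activating subunit of centralspindlin, had 840 and 619 reads (-0.45, 1.37-fold lower, 1.23 to 1.52). *Ect2*, the exchange factor for RhoA that Racgap1 recruits, had 139 and 124 reads, and *Anln*, the anillin scaffold of the contractile ring, had 79 and 65, both with intervals that held no change (fold 0.688 to 1.13 and 0.578 to 1.15). The ratio of the folds of *Racgap1* and *Ect2*, 0.826 (0.629 to 1.09), did not leave out equal folds. *Cit*, the citron kinase of the midbody, had 9 and 18 reads and passed the minimum of 10 reads only through the TSA library. Its log2 fold change was 0.91, with an interval from -0.24 to 2.32, so neither direction was detectable.

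*Mki67* and *Top2a*, the genes of the mitotic chromosome, were both lower. *Mki67* (chromosome 7, 135689784 to 135716361), which encodes Ki-67, the coat protein of mitotic chromosomes and a marker of cycling cells, had 1861 and 653 reads, 2.88-fold lower (2.63 to 3.15). *Top2a*, topoisomerase II alpha, which untangles sister chromatids, had 8156 and 4420 reads, and was 1.86-fold lower (1.80 to 1.93). The ratio of their folds was 0.647 (0.587 to 0.714).

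**Figure D3:**
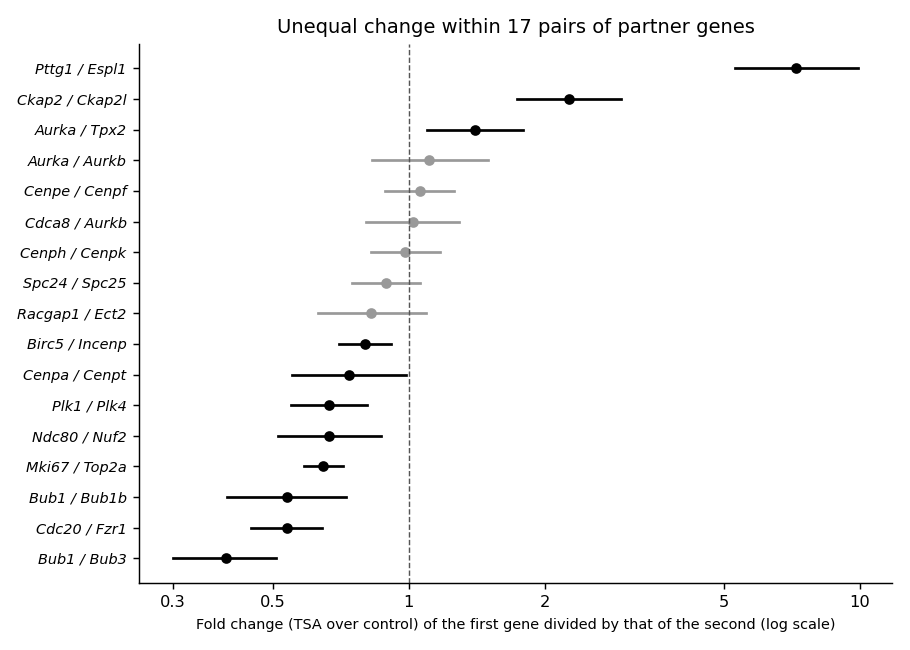
Ratio of the fold change (TSA over control) of the first gene of a pair to that of the second, on a log axis, with exact 95% intervals from the reads, for 17 pairs. Black marks the 11 pairs whose interval leaves out 1, and grey the others. *Pttg1* against *Espl1* lies farthest out, at 7.20.

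Other genes of the same machinery were taken from lists that do not hold the members. Of 21 other spindle and midbody genes, 20 were lower and 7 passed 2-fold (*Kif4*, *Kif11*, *Nek2*, *Aspm*, *Kif2c*, *Cep55* and *Pbk*), with a median of -0.89, beside the -0.90 of the members. The lowest was *Kif4*, a kinesin of the central spindle that sets its length with Prc1, with 242 and 79 reads (-1.62), and the highest was *Numa1*, with 869 and 989 (0.17). Of 9 other checkpoint and cohesion protector genes, 7 were lower and 3 passed 2-fold (*Zwilch*, *Sgol1* and *Sgol2a*), with a median of -0.80. The shugoshin *Sgol2a*, which shields centromeric cohesin, was the lowest, with 475 and 189 reads (-1.34), and *Zw10* the highest, with 365 and 475 (0.37).

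The 21 other kinetochore genes had a median of -0.44, near that of the inner kinetochore members, with 17 lower and 3 past 2-fold. Among those were *Ska3* (96 and 42 reads, -1.19) and *Casc5*, the Knl1 scaffold to which Bub1 is recruited (216 and 107, -1.02). *Cenpu* was the highest, with 179 and 221 reads (0.29). Not all outer kinetochore genes of this list fell as far as *Ska3* and *Casc5*. *Ska1* (-0.88), *Pmf1* (-0.79), *Ska2* (-0.77), *Dsn1* (-0.58), *Nsl1* (-0.44) and *Mis12* (-0.42) fell less, and *Zwint* was higher (2552 and 2898 reads, 0.17). Of 13 genes of mitotic entry, 12 were lower, with a median of -0.51, from *Gtse1* (429 and 155 reads, -1.48), the only one past 2-fold, to *Cdc25b* (181 and 189, 0.048).

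The 7 genes of the MuvB complex and its partners had a median of -0.15 and did not move alike. *Foxm1*, the transcription factor of G2 and M phase genes, had 319 and 110 reads (-1.54) and was the only one past 2-fold, while *Lin37*, a MuvB subunit, had 54 and 96 (0.80).

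DNA replication genes, which act in S phase, were lower by smaller amounts. Of 38 such genes, 37 were lower, none passed 2-fold, and the median was -0.27, from *Mcm10* (926 and 568 reads, -0.72) to *Rpa3* (117 and 126, 0.092). Of the 44 mitotic genes, 27 lay below the lowest replication gene, and no replication gene lay below the median of the mitotic genes. The summed fold was 0.569 for the mitotic genes and 0.805 (0.797 to 0.814) for the replication genes. The ratio of the summed folds, a comparison chosen after the values were seen, was 0.707 (0.693 to 0.721).

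**Figure D4:**
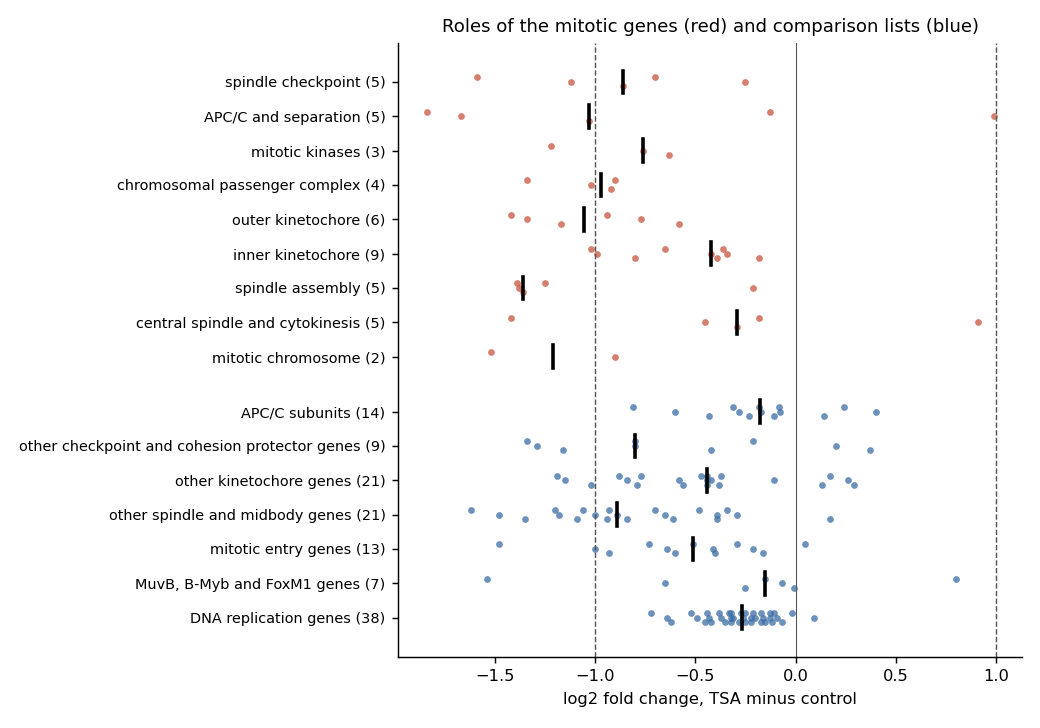
Log2 fold change (TSA minus control) of each gene by role of the mitotic genes (red, number of genes in brackets) and in the comparison lists (blue), with a bar at each median and dashed lines at 2-fold. Spindle assembly lies farthest to the left by its median of -1.36, and the 38 replication genes stay between -0.72 and 0.092.

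The promoters were read for all members found in the RefSeq promoter table. It held 40 of the 44 members with 45 promoters, each with its start site within 169 bases of a GENCODE M21 transcript start, and did not match *Incenp*, *Aurkb*, *Tpx2* and *Spc24*. A CHR stood in a promoter of 26 of the 40 members and in 19.2% of all 32851 promoters of the same length. A CCAAT box stood in 29 of the 40 and in 37.4% of all promoters, and both motifs in 24 of the 40 and in 7.52%. Counted by promoter, 29 of the 45 held a CHR (64.4%) and 27 held both (60.0%). The CHR lay close to the start site: 15 members had one beginning 0 to 49 bases after it (2.46% of all promoters) and 11 in the 100 bases before it (6.33%), while 6 had one farther upstream (11.9%). CCAAT boxes began in the 100 bases before the start in 24 members (19.3% of all promoters). The E2F motif of S phase genes (TTTCCCGC, TTTGGCGC, TTTCGCGC or TTTGCCGC, on either strand) stood in 1 of the 40, *Cenpm*, and in 2.26% of all promoters. Counted by gene, as for the members, the CHR stood in 16.1%, the CCAAT box in 43.3%, both in 7.88% and the E2F motif in 5.42% of 7542 genes that are no members, averaged 50 normalized counts or more and had a promoter in the table. A CCAAT box may share a base with a CHR, as in *Cenpw*. These are matches of letters and not measured binding.

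Members with and without a CHR overlapped in their changes. The 26 with a CHR had a median log2 fold change of -0.90, from -1.84 in *Espl1* to -0.18, and 11 of them were lower by more than 2-fold. The 14 without had a median of -0.50, from -1.38 in *Nusap1* to 0.99 in *Pttg1*, with 5 past 2-fold (*Nusap1*, *Cenpe*, *Birc5*, *Mad2l1* and *Cenpi*). Some of these windows miss the GENCODE gene start, and a CHR there would not be seen. The RefSeq starts of *Mad2l1* and *Plk4* lie 169 and 68 bases before it. Those of *Pttg1*, *Cit* and *Cenpt* lie 270, 378 and 1270 bases inside the gene, near other transcript starts. Among the genes with a CHR and a CCAAT box were *Bub3*, *Ect2*, *Cenpw* and *Ckap2*, whose log2 fold changes were between -0.25 and -0.18. Outside the members the medians lay close together: of the same 7542 genes, 1215 with a CHR had a median of -0.050 and 6327 without had -0.035, and 2.88% and 0.996% of them were lower by more than 2-fold.

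**Figure D5:**
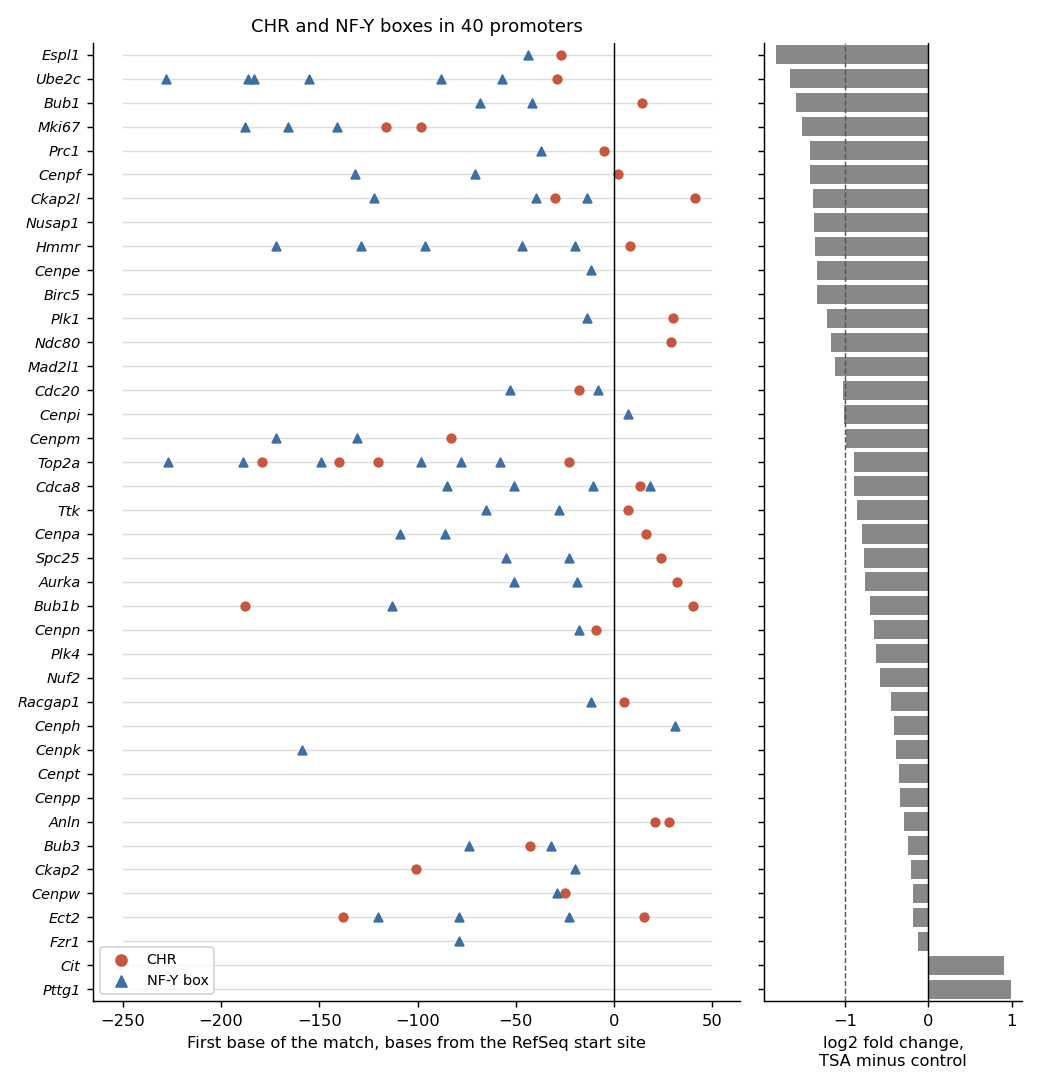
Left, first base of each CHR (circles) and CCAAT box (triangles, labelled NF-Y box) relative to the RefSeq start site for the 40 members with a promoter, 1 promoter each, ordered by log2 fold change. Right, the log2 fold change (TSA minus control) of each, with a dashed line at 2-fold lower; circles gather near the start site in most rows, and the bottom row, *Pttg1*, holds none.

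Some values are less certain because reads may be shared with other genes. Another annotated gene on the opposite strand overlaps the last 500 bases of 8 members (*Bub3*, *Cdc20*, *Cenpp*, *Cenpt*, *Ckap2l*, *Fzr1*, *Prc1* and *Ube2c*), and the strand used in counting is not given in the sources used here. Of these partners, *Elovl1* at *Cdc20* had 1407 and 1097 reads and *Ippk* at *Cenpp* had 212 and 176, while *Tnnc2* at *Ube2c* had 0 in both and *Rccd1* at *Prc1* had 9 and 7. In 7 members (*Cenpf*, *Cenpp*, *Cenpw*, *Ckap2l*, *Mki67*, *Ndc80* and *Prc1*) the last 500 bases of the transcript hold a stretch at least 95% identical to another transcript over at least 75 bases. How the counting treated such reads is not given either, and their part in these values was not tested.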

How the data were processed

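Total RNA of 1 control and 1 TSA culture was sequenced by the authors as QuantSeq 3′ libraries with single-end 75-nt reads and analysed with ExDEGA. The submitters' processing notes name Bowtie2, bedtools and mm10. The versions, annotation and normalization are not given in the sources used here.

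The deposited values are log2 of a normalized count plus 1, as found from the values: within 0.1 of a read, 100.0% (control) and 99.9% (TSA) of the back-transformed values of 1 to 300 reads were whole reads. The deposited scaling was kept, because the plan used raw counts only if they were given. A pseudocount of 1 is thus part of each log2 fold change, which understates that of low genes. In the control library, 1940 rows listed between 0 and the value of a read were read as 0 reads. A count of 0 allows up to 3 reads, a CPM of 0.277 (control) and 0.288 (TSA). The transcript Rn45s took 8.72% and 9.63% of the reads.

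Folds have exact Clopper-Pearson 95% intervals, and ratios of folds exact conditional intervals, with no p-value. A gene was tested if either library had 10 reads of it or more, and those beyond 2-fold were called. The members and gene lists were chosen with earlier results of these data known. Values were named for all members, and from each list for the genes past 2-fold and the lowest and highest, except for an item that is not reported here. Positions and overlaps came from GENCODE M21 and near-identical stretches from blastn 2.17.0. Promoters came from RefSeq and matched 79.7% of the tested genes, under the 80% set as a minimum, so tested genes with and without a motif were compared only among those that averaged 50 normalized counts or more, of which 80.7% matched. That comparison was added after the values were seen. Protein sequences were not analysed here. Computations were made in Python 3.11.15 with scipy 1.17.1, matplotlib 3.10.9, numpy 2.4.6 and pandas 2.3.3, and the steps were tested on simulated data. Alternatives covered the scaling, the pseudocount, the filter, the threshold and the CHR letters and window.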

Additional observations from a re-analysis of the deposited data

How the results depend on the processing

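With 1 library per condition, no replicate could be left out and the spread between cultures is unknown. No paired analysis was possible because each condition had 1 library. The count of mitotic genes lower by more than 2-fold, 18, was 31 at a threshold of 1.5-fold (8.34% of all tested genes) and 13 where the whole interval had to lie beyond 2-fold. The count higher by more than 2-fold was 0 with the deposited scaling, 1 (*Pttg1*) when scaled by total reads, by total reads without *Rn45s*, by the upper quartile or not at all, and 2 at 1.5-fold (18.7% of all tested genes). Over the 6 scalings, 15 of the 18 stayed lower by more than 2-fold and all 44 kept their sign. The members whose interval left out no change, 38, were 36 when scaled by total reads, by total reads without *Rn45s* or by the upper quartile. Each scaling shifts all genes by about the same amount: *Top2a*, for example, went from -0.90 to between -0.83 and -0.81 under these 3. The median of the members without a CHR, -0.50, was -0.61 with TTTGAA as the only form and -0.42 with the window from 100 bases before the start, and that of the members with a CHR was -0.88 and -0.90. The number of all tested genes lower by more than 2-fold, 383, fell to 141 where normalized counts had to average 50 and rose to 1200 with no filter. The medians of the role groups and lists moved by less than their spread.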
